A study of Homo sapiens with 42 samples.

Results

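Nutlin keeps MDM2 from binding p53, so that p53 builds up, and p53 siRNA under Nutlin asks which genes differ when p53 is lowered in that state. The contrast also holds differences that the siRNA gives without Nutlin, which were measured under DMSO. The 6 arrays compared here are 3 of A375 cells given p53 siRNA and 3 of A375 cells given GL2 siRNA, both treated with Nutlin, out of 42 arrays in the series. They were chosen by their sample titles alone. A375 cells come from a human melanoma and carry activated BRAF, and GL2 is an siRNA against firefly luciferase with no human target. Every culture was transfected for 48 hours and then exposed for 26 hours, here to 5 uM Nutlin. The same pair of siRNAs was also measured with 0.065% DMSO (a first set of 3 arrays each), 100 nM daunorubicin and 650 nM MLN4924. All groups share the cell line and its BRAF background, and siRNA lowers a gene without deleting it. Whether replicates came from separate cultures is not in the labels, so a p-value measures only the spread between samples of a group. That spread was pooled over all 42 arrays of the 14 groups, other drugs included, and not taken from the 6 arrays alone.

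p53 is a transcription factor that binds a DNA element made of a pair of copies of a 10-base half-site and raises genes that stop the cell cycle, repair DNA or start cell death. MDM2, itself a p53 target, marks p53 for breakdown and thereby limits it. The p53 target CDKN1A (p21) inhibits the cyclin-dependent kinases, which leaves the RB family and the DREAM repressor complex bound to genes of DNA replication and mitosis. Those genes carry E2F sites or a cell cycle homology region, CHR, with CCAAT boxes near their starts.

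Each value is an Affymetrix signal on the log2 scale, centred on the array's median gene, for the brightest probe set of a gene. Differences are p53 siRNA minus GL2 siRNA on that log2 scale, so a gene lower with p53 siRNA has a negative difference. A gene was called at a limma adjusted p under 0.05 with a difference of at least 1.5-fold. The median of genes before centring was 6.17 to 6.30 on the 6 arrays, and centring moved the difference of the groups by 0.034. The 5′ to 3′ signal ratio of ACTB, a sign of RNA quality, was 0.721 to 0.821 with p53 siRNA and 0.697 to 0.732 with GL2 siRNA under Nutlin, against 0.806 to 0.886 over the 6 DMSO arrays; its part in the results was not tested. In bulk RNA, fewer cells of a kind and less RNA per cell cannot be told apart.

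With p53 siRNA under Nutlin, 1622 of 19775 genes were higher (8.20%) and 1565 were lower (7.91%), which is 16.1% in all. The median difference of all genes was -0.04. Of the calls, 882 higher and 687 lower genes passed 2-fold, 339 and 170 passed 4-fold, and 82 and 16 passed 16-fold. The 3 arrays of one siRNA lay wholly above or below those of the other in 7804 genes (39.5%), and in 3105 of the 3187 called genes. In 360 of the higher genes the GL2 group mean was below 31.9, the median signal of all values, and in 237 of the lower genes the p53 siRNA mean was, so these folds rest on dim signals.

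CDKN1A and MDM2 served as checks of the siRNA and the drug. The level of CDKN1A was 12.39, 12.35 and 12.50 on the GL2 Nutlin arrays and 9.51, 9.02 and 8.89 on the p53 siRNA Nutlin arrays. It was 9.03, 9.11 and 9.26 with GL2 siRNA and DMSO, and 7.25, 7.59 and 6.96 with p53 siRNA and DMSO. The arrays did not overlap between the siRNAs in either treatment, and CDKN1A with p53 siRNA and Nutlin overlapped that of GL2 cells without Nutlin. The difference under Nutlin was -3.27 ± 0.17 (SE, n = 3 each, limma adjusted p = 6.84e-16), or 9.66-fold. MDM2 was at 12.85, 12.82 and 12.94 with GL2 siRNA and at 10.30, 9.76 and 9.91 with p53 siRNA under Nutlin. Its difference was -2.88 ± 0.16 (adjusted p = 2.15e-15), with 9 of its 10 probe sets called the same way.

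**Figure D1:**
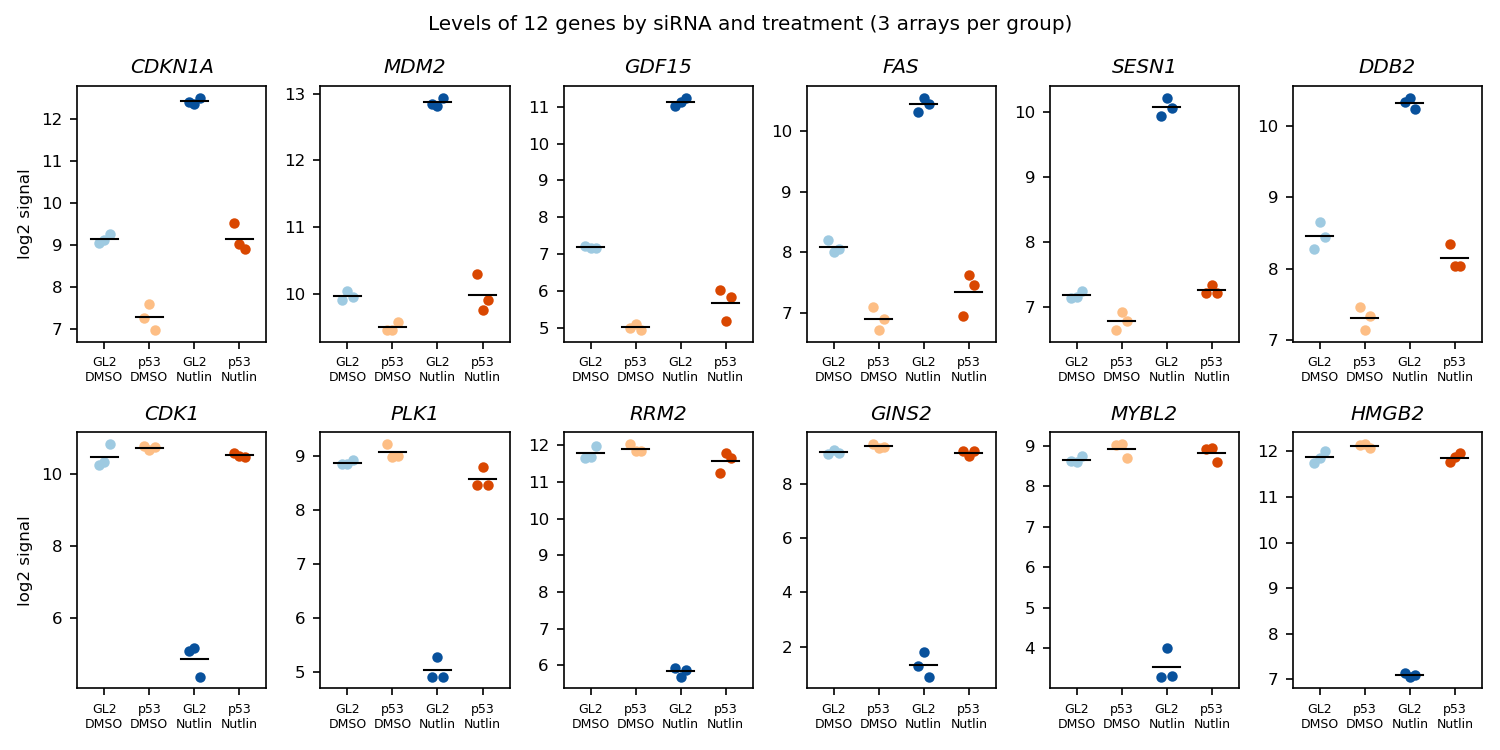
Log2 signal of 12 genes on each array (points) with the group mean (line), for GL2 and p53 siRNA with DMSO (first set) and with Nutlin, 3 arrays per group and one axis scale per gene. The 6 genes of the top row, p53 targets, are high in GL2 cells with Nutlin, and the 6 of the bottom row, genes of replication and mitosis, are low there alone.

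Among p53 and its regulators, 6 of 10 measured members fell with p53 siRNA and 2 rose, with a list median of -0.80. TP53INP1, which promotes p53-dependent death and autophagy, was at 6.80, 6.27 and 6.44 with p53 siRNA against 10.15, 10.22 and 10.19 with GL2 siRNA, and differed by -3.68 ± 0.21 (adjusted p = 4.49e-15). PPM1D, a phosphatase that turns p53 signalling down, differed by -1.68, and CCNG1, a cyclin that works with MDM2, by -0.99. The p53 siRNA arrays of all 3 lay below the GL2 arrays. MDM4, the partner of MDM2 that inhibits p53, differed by -0.23 and was not called (adjusted p = 0.51). The 2 members that rose were WRAP53, whose gene overlaps that of p53 head to head, at 0.79 ± 0.08, and TP73, a p53 family member, at 1.02. TP73 was dim, its arrays overlapped, and it lost its call without p53 Nutlin array 1 or 2 or GL2 Nutlin array 2 or 3, which leaves 1 higher member.

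The p53 targets of cell cycle arrest were lower with p53 siRNA in 11 of 13 measured members, and 0 were higher. GDF15, a secreted stress cytokine, was at 11.01, 11.12 and 11.25 in GL2 cells and at 6.03, 5.18 and 5.83 in p53 siRNA cells, a gap wider than the spread within either group. Its difference of -5.45 ± 0.25 (43.7-fold, adjusted p = 3.03e-17) was the largest decrease among genes above the median signal in both groups. ZMAT3, an RNA-binding protein, differed by -2.83, PLK3, a stress kinase, by -2.18, and GADD45A, a DNA damage regulator, by -1.89. PLK2 (-1.21), SFN (-0.65), BTG1 (-0.74), PHLDA3 (-1.41) and E2F7 (-0.78) also fell. TRIM22, also an interferon-stimulated gene, fell by 4.54 from 8.09 to 8.32 in GL2 cells to 3.21 to 3.93 in p53 siRNA cells, below the median signal. CABLES1 (0.19) and PRDM1 (-0.55) were not called.

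Among the p53 targets in cell death, 9 of 17 measured members fell and 0 rose. TP53I3, a quinone reductase induced by p53, was at 12.18, 12.07 and 12.25 with GL2 siRNA and at 9.07, 8.97 and 8.93 with p53 siRNA. Its difference of -3.17 ± 0.12 (adjusted p = 5.12e-19) came without any under DMSO, where it was -0.01. FAS, a death receptor, was at 10.33, 10.56 and 10.45 against 6.94, 7.63 and 7.46, and differed by -3.11 ± 0.16. The TRAIL receptors TNFRSF10A and TNFRSF10B differed by -2.01 and -1.18. BAX, which opens the mitochondrial outer membrane, differed by -2.35 ± 0.40 (adjusted p = 3.74e-05), and its p53 siRNA arrays were spread from 7.54 to 8.55. TRIAP1, a small inhibitor of caspase activation, differed by -1.67.

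In metabolism, antioxidant defence and autophagy, 11 of 16 measured p53 targets fell and 0 rose. SESN1, a sestrin that restrains mTOR signalling, was at 9.93, 10.22 and 10.06 with GL2 siRNA and at 7.21, 7.34 and 7.21 with p53 siRNA. Its difference was -2.82 ± 0.13 (adjusted p = 7.82e-17). ACER2, a Golgi ceramidase, differed by -2.57, TIGAR, a phosphatase that lowers glycolysis, by -2.21, DRAM1, a lysosomal autophagy protein, by -2.08, SESN2 by -1.63 and FUCA1, a lysosomal fucosidase, by -1.18. Each of these had p53 siRNA arrays below all GL2 arrays. As the mean of its probe sets FUCA1 was at -0.80 and not called.

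Of 11 measured p53 targets in DNA repair, 8 fell and 1 rose. DDB2, which finds ultraviolet damage, was at 10.33, 10.39 and 10.23 with GL2 siRNA and at 8.35, 8.04 and 8.04 with p53 siRNA, a difference of -2.17 ± 0.15 (adjusted p = 1.50e-12). POLH, a translesion polymerase, differed by -2.03, RRM2B, the p53-induced ribonucleotide reductase subunit, by -1.93, ASCC3, a helicase, by -1.49, XPC, another damage sensor, by -1.48 and RPS27L by -1.12. FANCC, of the Fanconi complex, rose by 1.10, with 0.53 and no call as the mean of its probe sets. PCNA, the sliding clamp of replication, stood at 11.40 to 11.71 against 11.70 to 11.79; its groups overlapped and it was not called (-0.17 ± 0.14, adjusted p = 0.45).

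A list of p53 targets that are mostly surface or secreted proteins fell in 11 of 17 measured members, with 0 higher. Its largest differences were in members that act inside the cell, INPP5D, an inositol phosphatase, at -2.66, and CMBL, a cytosolic hydrolase, at -2.40. PLXNB3, a semaphorin receptor, differed by -2.06, HBEGF and TGFA, ligands of the EGF receptor, by -1.95 and -1.32, and EPHA2, an ephrin receptor, by -1.15. Over all 73 measured p53 targets 49 fell and 1 rose, with a median of -1.18 against -0.04 for all genes.

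The largest other decreases by the naming rule were led by RGS16, an inhibitor of G protein signalling, at -5.04 ± 0.24. RGS16 was at 10.18, 10.46 and 10.43 with GL2 siRNA and at 6.21, 5.08 and 4.65 with p53 siRNA. CYFIP2, of the WAVE complex, differed by -4.32, PLTP, a phospholipid transfer protein, by -3.79, IL24, a cytokine, by -3.6, UCA1, a long noncoding RNA, by -3.51, ACTA2, smooth muscle actin, by -3.50 and GASK1B by -3.28. ACTA2 rested on its brightest probe set, as the mean of its 3 probe sets gave -0.63 (adjusted p = 0.471). Dim with p53 siRNA were SUGCT (-6.33), ZSCAN4 (-5.76), CYP4F2 (-5.06) and UNC5B-AS1 (-4.60).

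The microRNA gene MIR34A, whose product lowers cell cycle proteins, is measured through its primary transcript and not as the mature RNA. Its level was 8.54, 8.92 and 8.80 with GL2 siRNA and 6.52, 6.42 and 6.35 with p53 siRNA, and it differed by -2.32 ± 0.17 (adjusted p = 5.00e-12). RefSeq (GRCh38.p14) places the mature arm at chr1:9151735-9151756, minus strand, shown with its seed, bases 2 to 8, in capitals because the seed pairs with targets.
hsa-miR-34a-5p: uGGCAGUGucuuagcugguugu

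Genes of the cell cycle moved the other way. Over 7 lists of mitosis, replication, repair and chromatin genes, 145 of 154 measured members rose with p53 siRNA and 0 fell, with a median difference of 2.93. Their median difference was 0.11 under DMSO, and Nutlin moved them by a median of -0.19 in p53 siRNA cells and -2.93 in GL2 cells.

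All 14 measured mitotic kinases rose, with a median of 3.72. PLK1, which drives entry into and exit from mitosis, was at 8.46, 8.79 and 8.45 with p53 siRNA and at 4.92, 5.29 and 4.92 with GL2 siRNA, a difference of 3.52 ± 0.20 (adjusted p = 5.00e-15). BUB1B (4.97), BUB1 (4.90) and TTK (4.91), kinases of the spindle checkpoint, AURKA (3.52) and AURKB (4.14), of the spindle and midzone, NEK2 (3.71), PLK4 (3.94), of centriole duplication, and PBK (5.25) also rose. HASPIN, which marks histone H3 for mitosis, showed the smallest rise of the list at 1.59. The p53 siRNA arrays lay above the GL2 arrays in each, and BUB1, TTK and PLK4 were dim with GL2 siRNA.

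In kinetochore, spindle and cytokinesis genes 33 of 34 rose, with a median of 4.75, the highest of any list. PRC1, which bundles midzone microtubules, was at 10.54, 10.89 and 11 with p53 siRNA and at 5.30, 5.23 and 5.29 with GL2 siRNA. The arrays were far apart, and the difference was 5.53 ± 0.30 (adjusted p = 2.31e-15). BIRC5 (6.98) and CDCA8 (6.0), of the chromosomal passenger complex, ASPM (6.95), of spindle poles, DLGAP5 (6.09), NUF2 (5.83), of the NDC80 complex, HMMR (5.34), ANLN (5.24) and CEP55 (4.99), of cytokinesis, rose with it. The kinesin KIF18B rose by 5.39. BIRC5, CDCA8, ASPM, DLGAP5, NUF2 and HMMR were below the median signal with GL2 siRNA.

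All 16 condensin, cohesion and topoisomerase genes rose. TOP2A, which untangles sister chromatids, was at 10.60, 10.94 and 10.85 with p53 siRNA and at 5.35, 5.07 and 5.12 with GL2 siRNA. Its 3 probe sets were all called, and the difference was 5.62 ± 0.21 (49.1-fold). NCAPH (5.48) and NCAPG (5.30), of condensin, CDCA5 (3.75), which protects cohesion, and ESCO2 (6.72), a cohesin acetylase, rose as well. NCAPH, NCAPG and ESCO2 were dim with GL2 siRNA.

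Origin licensing and helicase genes rose in 20 of 24 measured members. GINS2, a subunit of the replicative helicase, was at 9.21, 9.03 and 9.18 with p53 siRNA and at 1.28, 1.80 and 0.90 with GL2 siRNA, far below the median signal. Its 7.81 ± 0.30 (adjusted p = 9.31e-19) was the largest difference of any gene by the naming rule, and its size rests on that dim signal. CDC45 (6.61), MCM10 (4.85), GINS1 (4.21), MCM6 (3.58) and MCM5 (3.44), of the same helicase and its loading, rose, CDC45 and MCM10 from a dim signal. The 4 members that were not called, named after their values were seen, were ORC2, ORC3, ORC4 and ORC5, subunits of the origin recognition complex, at -0.28 to 0.27.

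DNA synthesis and nucleotide supply genes rose in 25 of 26, PCNA being the exception. RRM2, the cell cycle subunit of ribonucleotide reductase, was at 11.24, 11.79 and 11.66 with p53 siRNA and at 5.94, 5.69 and 5.87 with GL2 siRNA. Its 5.73 ± 0.19 (53.1-fold, adjusted p = 5.77e-20) led the genes above the median signal, while its p53-induced relative RRM2B fell. POLE2 (3.95), PRIM1 (3.20), RFC3 (2.90) and RFC4 (2.80), of the polymerases, primase and clamp loader, rose, POLE2 from a dim signal.

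Homologous recombination and Fanconi genes rose in 19 of 22 and fell in 0 (1 without p53 Nutlin array 1), among them RAD51AP1 (4.92), CLSPN (4.91), FANCI (3.81), BRIP1 (3.20) and BARD1 (2.76), with RAD51AP1, CLSPN and BRIP1 dim in GL2 cells. All 18 chromatin and lamina genes rose. HMGB2, a chromatin architectural protein, was at 11.76, 11.88 and 11.96 against 7.14, 7.06 and 7.10, and differed by 4.77 ± 0.14, with the lowest adjusted p of the genes named (1.63e-21). ATAD2 (4.03), UHRF1 (4.10), which directs DNA methylation, and ASF1B (3.80), a histone chaperone, rose likewise.

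**Figure D2:**
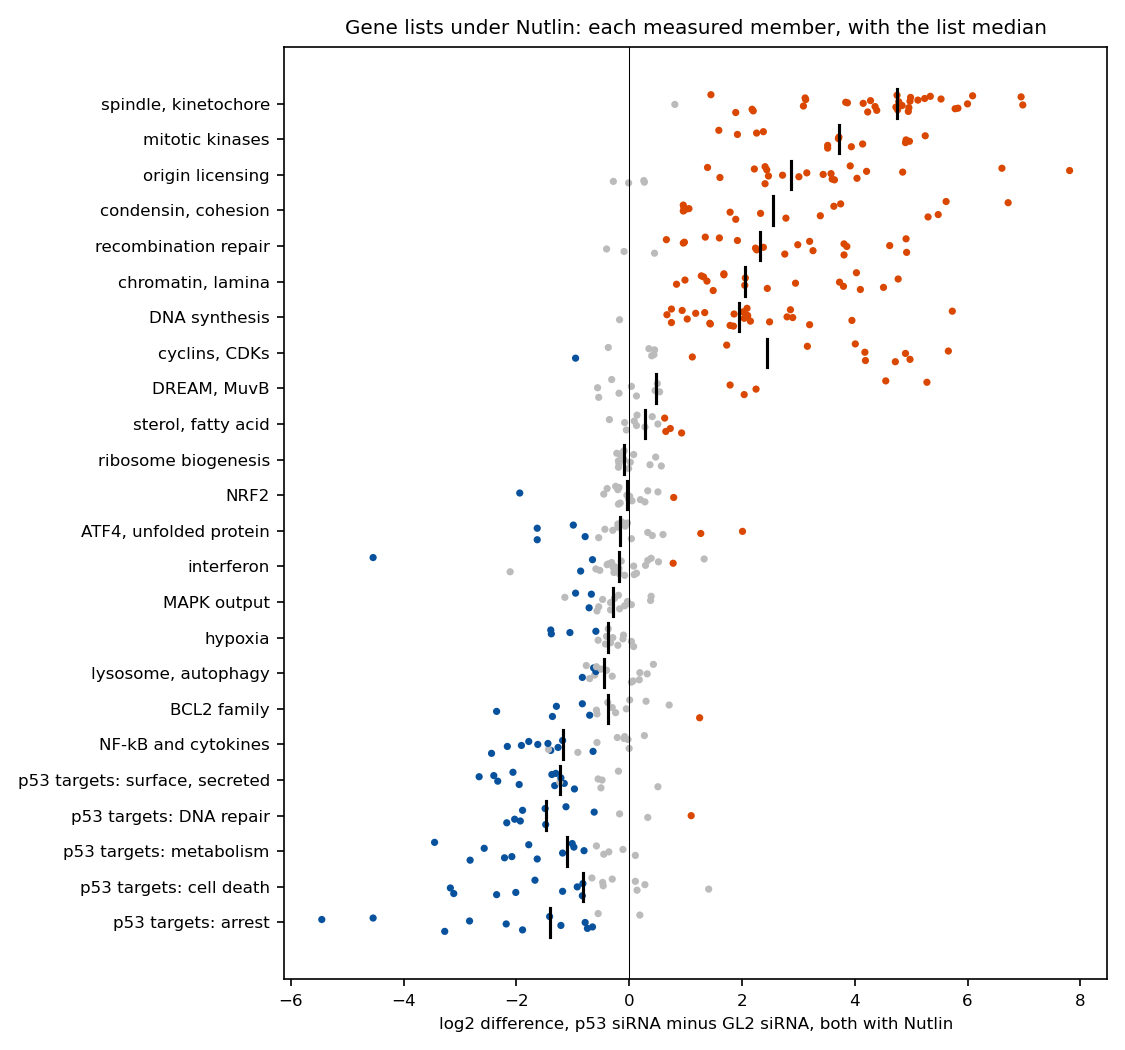
Log2 difference under Nutlin, p53 siRNA minus GL2 siRNA, of each measured member of 24 gene lists (points; orange called higher, blue called lower, grey not called) with the list median (black bar). The mitosis, replication, repair and chromatin lists lie to the right with medians of 1.94 to 4.75, the 5 p53 target lists to the left with medians of -1.48 to -0.82.

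The regulators of these genes differed among themselves. In DREAM and its partners 5 of 14 measured members rose and 0 fell. MYBL2 (B-MYB), the activating partner that takes over the MuvB core, was at 8.93, 8.95 and 8.60 with p53 siRNA and at 3.30, 4.01 and 3.32 with GL2 siRNA, a difference of 5.28 ± 0.29 that rests on a dim signal in GL2 cells. FOXM1, the mitotic transcription factor, differed by 4.55, RBL1 (p107) by 2.04, LIN9 by 2.25 and LIN54 by 1.79, while RBL2 (p130) stood at -0.18 and was not called. The count of lower members was 1 without p53 Nutlin array 1 or 2 or GL2 Nutlin array 1 or 2. LIN9 rested on its brightest probe set, with 0.81 (adjusted p = 0.226) as the mean of its probe sets.

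Of 8 measured E2F factors, E2F1 (4.08), E2F8 (4.44) and E2F2 (1.36) rose and E2F7 fell, so the 2 atypical E2Fs, which repress, went opposite ways. E2F1, E2F8, CCNE2, CDC25C and LIN54 were dim with GL2 siRNA. Of 16 cyclins, CDKs and CDC25 phosphatases 10 rose and 1 fell. CDK1, the mitotic kinase, was at 10.58, 10.51 and 10.49 with p53 siRNA and at 5.08, 5.15 and 4.36 with GL2 siRNA, and differed by 5.66 ± 0.23 (50.7-fold, adjusted p = 1.85e-18). These GL2 levels lie around the median signal of all values, 4.995 in log2, so the size of the fold rests on low signals. CCNB2 (4.98), CCNE2 (4.90), CCNA2 (4.72), CCNB1 (4.19) and CDC25C (4.01) rose with CDK1, and 1 of the 3 probe sets of CCNB2 was called the opposite way. CCND1, a G1 cyclin, was the member that fell, at -0.95, with p53 siRNA levels of 10.92, 9.77 and 9.73 against 11.02 to 11.21. Among CDK inhibitors CDKN1A alone fell of 7 measured, while CDKN1B (p27) rose by 0.83 and CDKN3, a phosphatase of CDKs, by 3.6. The lower counts of E2F factors and CDK inhibitors were 2 without p53 Nutlin array 2.

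Promoters of these groups were searched in the RefSeq table (GRCh38.p14), from 250 bases before to 50 bases after each listed start, on both strands. TTTGAA, the CHR, was in 60.7% of 61 windows of 52 matched mitosis genes, in 9.82% of 112 windows of 80 replication, repair and chromatin genes, and in 15.2% of all 35116 windows. Within the 250 bases before the start alone these shares were 42.6%, 8.04% and 13.3%. The E2F site GCGGGAA was in 33.0% of the replication, repair and chromatin windows, 13.1% of the mitosis windows and 6.55% of all windows. CCAAT was in 60.7%, 55.4% and 34.6% of the mitosis, replication and all windows. Among genes called at least 4-fold higher TTTGAA was in 28.7% of 352 windows, and among those at least 4-fold lower in 14.8% of 209. In the 21490 windows of tested genes TTTGAA was in 12.3%, GCGGGAA in 8.21% and CCAAT in 34.5%. The genes at least 4-fold higher include mitosis genes already counted above. A match is a stretch of letters and not a measured binding site.

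The 250 bases before the start of 3 mitosis genes are shown because TTTGAA (or TTCAAA on the other strand) and CCAAT (or ATTGG) lie together in them, all in capitals. They are TOP2A at chr17:40417897-40418146 (minus strand), CDCA8 at chr1:37692266-37692515 (plus) and HMMR at chr5:163460382-163460631 (plus), which rose by 5.62, 6.0 and 5.34. In CDCA8 and HMMR the CHR lies within 30 bases of the start, at 23 bases in CDCA8 and at 28 and 22 bases in HMMR; in TOP2A it lies at 194 and 151 bases. In CDCA8 the CHR overlaps a CCAAT box.
TOP2A: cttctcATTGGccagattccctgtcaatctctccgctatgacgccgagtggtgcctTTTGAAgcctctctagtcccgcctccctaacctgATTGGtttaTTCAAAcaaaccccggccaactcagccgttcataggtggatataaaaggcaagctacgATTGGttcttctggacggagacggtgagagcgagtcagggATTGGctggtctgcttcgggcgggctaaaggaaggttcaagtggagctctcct
CDCA8: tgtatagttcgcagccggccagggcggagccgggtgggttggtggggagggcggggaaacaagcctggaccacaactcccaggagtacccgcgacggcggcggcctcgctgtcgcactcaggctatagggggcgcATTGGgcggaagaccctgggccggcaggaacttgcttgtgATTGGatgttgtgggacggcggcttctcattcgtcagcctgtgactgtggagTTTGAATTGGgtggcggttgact
HMMR: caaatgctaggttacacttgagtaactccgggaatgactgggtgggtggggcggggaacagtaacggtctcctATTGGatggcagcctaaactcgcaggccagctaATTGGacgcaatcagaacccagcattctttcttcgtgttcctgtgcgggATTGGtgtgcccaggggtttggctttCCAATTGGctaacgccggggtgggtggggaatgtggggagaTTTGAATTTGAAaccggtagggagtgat

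The p53 half-site was found in 12.8% of 86 windows of 58 matched p53 targets and in 6.63% of all windows. With only the first listed start of each gene these shares were closer, at 8.62% and 6.54%. The 250 bases before the start of FAS (chr10:88991181-88991430, plus strand) and SESN1 (chr6:109008989-109009238, minus strand), which fell by 3.11 and 2.82, each hold 1 half-site, in capitals, at 122 and 49 bases from the start.
FAS: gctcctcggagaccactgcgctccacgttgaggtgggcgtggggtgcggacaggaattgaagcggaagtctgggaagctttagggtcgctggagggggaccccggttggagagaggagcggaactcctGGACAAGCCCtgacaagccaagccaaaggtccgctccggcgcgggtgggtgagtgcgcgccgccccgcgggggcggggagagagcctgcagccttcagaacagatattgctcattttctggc
SESN1: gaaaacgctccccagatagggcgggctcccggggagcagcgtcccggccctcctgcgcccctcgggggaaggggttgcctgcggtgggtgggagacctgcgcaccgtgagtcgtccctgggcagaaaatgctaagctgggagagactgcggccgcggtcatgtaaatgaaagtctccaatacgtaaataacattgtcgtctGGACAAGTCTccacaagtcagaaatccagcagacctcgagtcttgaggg

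A full p53 site, a pair of half-sites with at most 13 bases between them, was in 10 of all windows (0.0285%), 6 of them windows of tested genes. Of those 6 genes PURPL, a long noncoding RNA that was named after its values were seen, and DDB2 were called. The site of PURPL lies at chr5:27472165-27472184 before the start and that of DDB2 at chr11:47214979-47214999 after it, both on the plus strand and in capitals except the spacer. PURPL was at 7.78, 7.73 and 7.96 with GL2 siRNA and at 3.78, 3.66 and 3.95 with p53 siRNA, and differed by -4.03 ± 0.35, which rests on a dim signal with p53 siRNA. PTCHD4, another gene with a full site, differed by -0.51 and was not called, but was without p53 Nutlin array 1 or GL2 Nutlin array 3.
PURPL: GGGCTTGTCTGGGCATGCCC
DDB2: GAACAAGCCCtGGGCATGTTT

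Other pathways were described by their lists as well. NF-kB targets and inflammatory cytokines fell in 10 of 19 measured members, with a median of -1.18, and 0 rose (1 rose without p53 Nutlin array 1). Under DMSO 2 of the 19 fell with p53 siRNA. The test of Nutlin less DMSO called 5 lower and 1 higher, so not all of the decreases were shown to differ from those without Nutlin. IL1A, an alarm cytokine, was at 7.12, 7.26 and 7.08 with GL2 siRNA and at 5.21, 5.03 and 4.73 with p53 siRNA. CXCL8, a neutrophil chemokine, differed by -2.44, IL1A by -2.16, IL1B by -1.91, NFKB2, an NF-kB subunit, by -1.78, LIF by -1.62 and RELB by -1.18. In the BCL2 family 5 of 15 fell and 1 rose: BCL2L1 differed by -1.36 and BCL2 by 1.25, and the lower count was 2 without p53 Nutlin array 1. For this family the test of Nutlin less DMSO called 1 lower and 1 higher of 15, against 10.1% of all genes. BCL2, the inhibitor of cell death, was dim with GL2 siRNA and was at 0.70 (adjusted p = 0.0757) as the mean of its probe sets.

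ATF4 and unfolded protein response genes rose in 2 and fell in 4 of 18. PHGDH, which opens serine synthesis, rose by 2.01 and ASNS, asparagine synthetase, by 1.27, while ATF3, a stress factor, fell by 1.63. NRF2 targets rose in 1 (SLC7A11, the cystine transporter, 0.79) and fell in 1 (AKR1B10, an aldo-keto reductase, -1.94) of 17. Sterol and fatty acid synthesis genes rose in 4 of 13 and fell in 0, among them HMGCS1 (0.93) and FDPS (0.73) of the mevalonate pathway. As the mean of their probe sets ASNS (0.65) and HMGCS1 (0.50) were not called. Hypoxia targets fell in 4 of 15, among them ANKRD37 (-1.39) and ALDOC (-1.38), and rose in 0. Lysosome and autophagy genes fell in 3 of 16 and MAPK output genes in 3 of 18, with 0 higher in either; the lysosome count was 5 without 3 doubted libraries of other drugs (named with the other drugs), and the MAPK count 5 without p53 Nutlin array 2. Interferon-stimulated genes rose in 1 and fell in 3 of 26, the lower count being 1 without p53 Nutlin array 2. Over all genes 16.1% were called. The interferon, NRF2, MAPK and lysosome counts are near or below that share, so they are no result about those lists. Ribosome biogenesis genes had 0 calls of 15, or 1 without p53 Nutlin array 2 or 3 or GL2 Nutlin array 2.

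Melanocyte lineage genes were at or above the median signal in 10 of 15 measured members in both groups, with 1 higher (RAB27A, of melanosome transport, 1.42) and 3 lower (among them RAB38, -1.14). Their summed signal was 3710 to 4150 with p53 siRNA and 4140 to 4810 with GL2 siRNA. Summed epithelial markers were at 2690 to 2710 and 2700 to 2810, and fibroblast markers at 624 to 667 and 587 to 661. Leukocyte markers were at 327 to 364 with p53 siRNA and 472 to 510 with GL2 siRNA. At most 1 marker of each of these 3 lists was called in each direction, and leaving out 1 array took the fibroblast call lower and both leukocyte calls to 0 (without p53 Nutlin array 2 or GL2 Nutlin array 1, among others). Their part in the results was not tested.

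Without Nutlin the same siRNA contrast was small. Under DMSO, 117 genes were higher (0.592%) and 232 lower (1.17%) with p53 siRNA, and the count of both, 349 (1.76%), was 1174 with the second DMSO set. Of the p53 targets 8 of 73 fell and 1 rose, with a median of -0.14. Of the 154 cell cycle genes 1 rose, KIF20A, a kinesin of cytokinesis named after its values were seen (0.77), and 0 fell, with a median of 0.11. Of the calls under Nutlin 180 were called the same way under DMSO, which is 5.65% of the Nutlin calls and 51.6% of the DMSO calls.

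The difference between the siRNA contrasts, Nutlin less DMSO, was tested on all 12 arrays. It was higher in 1059 genes (5.36%) and lower in 943 (4.77%), 10.1% in all. It was higher in 143 of the 154 cell cycle genes and lower in 40 of the 73 p53 targets. RRM2 had a change of 5.61 ± 0.27 (adjusted p = 1.37e-15), MDM2 of -2.42 ± 0.22 (adjusted p = 1.30e-09) and CDKN1A of -1.41 ± 0.24 (adjusted p = 8.30e-05). For HBEGF it was -0.35 (adjusted p = 0.42), with -1.60 under DMSO and -1.95 under Nutlin, and for BAX -1.60 (adjusted p = 0.0703); neither was called.

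**Figure D3:**
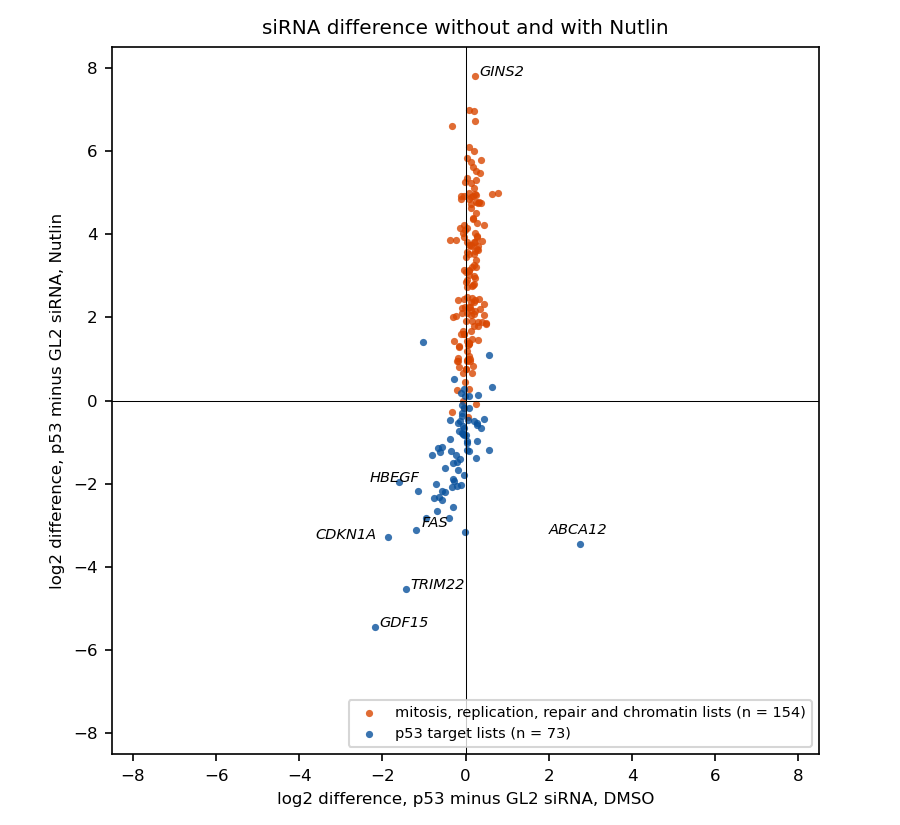
Log2 difference of p53 siRNA minus GL2 siRNA with DMSO (horizontal, first set) and with Nutlin (vertical) for 154 mitosis, replication, repair and chromatin genes (orange) and 73 p53 targets (blue), with 7 genes named. The orange points run up the vertical axis with differences near 0 under DMSO, and most blue points lie below 0 under Nutlin.

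What Nutlin itself did under each siRNA shares arrays with the contrast above and is given beside it. In GL2 cells Nutlin raised 1332 genes (6.74%) and lowered 1920 (9.71%), and it lowered 147 of the 154 cell cycle genes. In p53 siRNA cells Nutlin raised 8 (0.0405%) and lowered 3 (0.0152%) of 19775, or 0.0556% in all, with 0 calls among the 154 cell cycle genes and 2 higher among the 73 p53 targets. At an unadjusted p under 0.05 limma had 1946 of 19775 genes there, a count that includes unchanged genes that pass without adjustment. The 8 raised genes were CDKN1A (1.87), LGALS9 (1.75), ACTA2 (1.44), GAS6-AS1 (1.37), MIR34A (1.16), TP53INP1 (1.09), DDB2 (0.83) and CLK3 (0.62), and the 3 lowered were RTN4RL2 (-1.95), LOC100190986 (-1.23) and PRKCI (-0.82). CDKN1A, ACTA2, GAS6-AS1, MIR34A, TP53INP1 and DDB2 rose by 3.28, 3.06, 3.33, 2.07, 4.24 and 1.86 in GL2 cells. The count of 11 was 32 without p53 Nutlin array 2, 5 without p53 Nutlin array 3 and 4 without p53 DMSO array 3. It was 95 without the doubted libraries, 236 with both DMSO sets and 748 with the second set.

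The siRNA contrast was also measured under the other drugs, on other arrays. Libraries that stand apart there are p53 daunorubicin 1, with a ratio of ACTB far below the rest, and GL2 and BRCA1 MLN4924 3, in which BRCA1 goes against the labels. All 3 are called the doubted libraries. Under daunorubicin, which breaks DNA, 12.1% of genes were higher and 9.08% lower with p53 siRNA (21.2% in all), and without the doubted libraries 8.73% and 8.85%. Under MLN4924, which blocks cullin-RING ligases, these shares were 8.65% and 5.34%, and 7.73% and 5.00% without them. Of the Nutlin calls 1912 were called the same way under daunorubicin, which is 60.0% of the Nutlin calls and 45.6% of the daunorubicin calls (56.7% and 55.8% without the doubted libraries). With MLN4924 they were 1439, or 45.2% and 52.0% (38.3% and 52.1%). With all arrays, higher calls were shared more often than lower ones, with 70.0% against 49.6% under daunorubicin and 54.2% against 35.8% under MLN4924. These shares by direction were not counted without the doubted libraries, where the daunorubicin excess of higher over lower calls was gone. This difference between higher and lower calls was not tested.

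Cell cycle genes rose in 147 of 154 under daunorubicin and in 130 under MLN4924, with medians of 2.82 and 1.29 against 2.93 under Nutlin. Without the doubted libraries 142 and 119 rose, with medians of 2.56 and 1.03. The p53 targets fell in 34 and 37 of 73 and rose in 5 of each, against 34 and 36 lower and 4 higher of each without those libraries. Single genes differed in their order. GDF15 stood at -5.45 under Nutlin, -2.38 under daunorubicin and -5.28 under MLN4924, and DDB2 at -2.17, -1.48 and -3.64. PLK1 was at 3.52, 0.93 and 1.26. Without the doubted libraries the daunorubicin and MLN4924 differences were -2.03 and -5.37 in GDF15, -1.53 and -3.86 in DDB2 and 1.34 and 1.16 in PLK1, whose order under these drugs turned. IL24 fell under Nutlin and MLN4924 (-3.6 and -1.15) and was not called under daunorubicin (0.36). ATF3 fell by 1.63 under Nutlin, rose by 0.89 under daunorubicin and was not called under MLN4924 (0.20). Without those libraries IL24 was at 0.11 and -0.82 and ATF3 at 0.78 and 0.05 under daunorubicin and MLN4924, with the same calls. These differences between drugs were not tested.

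**Figure D4:**
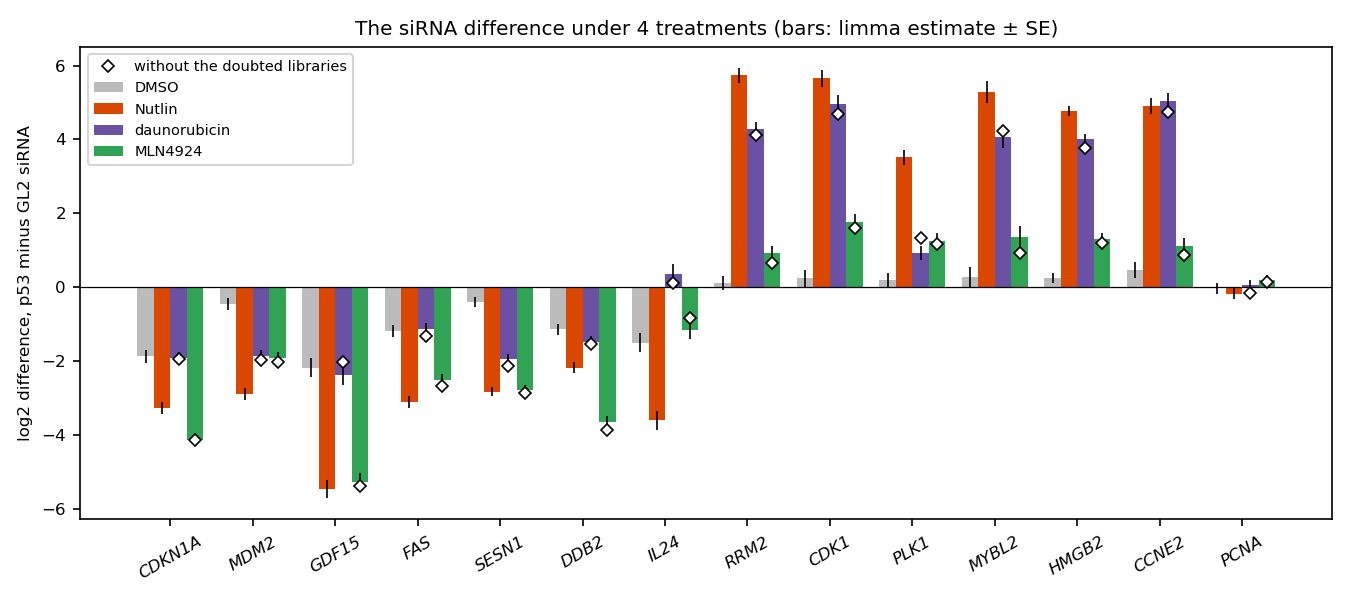
Log2 difference of p53 siRNA minus GL2 siRNA in 14 genes under DMSO, Nutlin, daunorubicin and MLN4924 (bars, limma estimate from all arrays; lines, SE; diamonds, daunorubicin and MLN4924 estimates without the doubted libraries). The p53 targets at the left, and IL24 beside them, lie below 0 under each treatment except IL24 under daunorubicin. The cell cycle genes at the right lie near 0 under DMSO and above it under the 3 drugs, apart from PCNA. The diamonds keep these sides of 0 in every gene but PCNA.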

How the data were processed

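RNA of A375 cells was measured on 42 Affymetrix arrays, 14 labelled groups of 3. The deposited table holds a linear signal intensity for 54675 probe sets, made by the authors with Affymetrix Expression Console, version not stated, per the submitters' processing notes; arrays shared 1 trimmed mean (2% off both tails). Before log2, 147 zeros were set to 0.1, the smallest signal above 0. A single gene symbol belonged to 41091 probe sets, several to 1801 and none to 11721; 62 were controls. Each of 19775 genes was represented by its brightest probe set (10523 genes had several) and each array centred on its median gene. No detection calls were used.

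limma 3.58.1 in R 4.3.3 fitted all 14 groups at once, with Benjamini-Hochberg adjustment over all genes. Data were simulated for the Nutlin contrast over 19775 genes. The fit recovered 20.9% of 67 genes shifted 1.5-fold, 61.2% of 67 shifted 2-fold and 69.7% of 66 shifted 4-fold. Of 19575 unchanged genes 1 was called. Far fewer genes were shifted than the 3187 called in the data, and adjusted p depends on how many genes change. These shares therefore do not measure the power or error rate of the real contrast. Precision is limited by having 3 arrays a group. The first DMSO set was the control, following earlier processing of these data; the labels do not tie a set to a drug.

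The members and the 31 gene lists (519 genes, 481 measured) were chosen with earlier results of these data known. Named genes were CDKN1A, MDM2, the 10 largest bright and 4 largest dim calls each way with arrays apart, up to 6 called members of each list by moderated statistic, members not called in lists of at most 14, the largest of the other contrasts and genes opposite under DMSO; not all are printed. Replicate numbers did not pair the samples. Alternatives were scaling, probe set choice, a pseudocount of 16, filters, fit options, thresholds, DMSO sets, the replicate block and each array left out. Summaries were made in Python 3.11.15 (pandas 2.3.3, numpy 2.4.6) and plots in matplotlib 3.10.9.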

Additional observations from a re-analysis of the deposited data

Results flagged for a closer look

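The difference between the siRNA contrasts, Nutlin less DMSO, passed the limma test in genes of both directions. It was 5.61 in RRM2, 5.45 in TOP2A, 5.41 in CDK1 and 5.29 in PRC1. It was -3.75 in GASK1B, -3.45 in PLTP, -3.44 in CYFIP2 and -3.27 in GDF15.

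In 6 genes the siRNA difference was called in opposite directions under Nutlin and under DMSO (first set), and the test of the difference passed. Genes picked by opposite calls on the same arrays are likely to pass that test, so its passing adds no support. ABCA12, a lipid transporter, was -3.45 under Nutlin and 2.76 under DMSO (difference -6.21), with GL2 DMSO levels of 1.61, -2.33 and -0.16, far below the median signal. STMN1, which destabilises microtubules, was 1.46 and -2.24 (3.70), with levels of 9.89, 9.84 and 9.83 in GL2 cells under DMSO against 7.47, 7.69 and 7.66 with p53 siRNA. CDH10, a cadherin, gave -3.70, LONRF1 1.60, CSGALNACT1 -1.48 and ZNF225 -1.38. CSGALNACT1 lost its call under Nutlin without p53 Nutlin array 1, and ZNF225 without p53 Nutlin array 2.

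Of 11721 probe sets without a gene in the annotation, which no comparison used, 302 were called higher and 443 lower under Nutlin, 6.36% in all, with differences from -5.41 to 5.05.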

How the results depend on the processing

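The Nutlin contrast had 3187 calls, and between 2647 and 4525 under every other setting apart from a 2-fold minimum (1569, 882 higher and 687 lower) and the replicate block within only the groups compared (1054, 609 and 445); leaving out 1 array gave 2880 to 3223, 1480 to 1691 higher and 1334 to 1539 lower. Of the 3187 genes 2264 were called with the mean of all probe sets, 2629 in a fit of only the groups compared and 997 with that block. Same-numbered arrays correlated at -0.05, -0.03 and -0.06 over 13438 genes, so the numbers did not pair them, and the replicate block over all arrays gave 3168. The DMSO contrast had 349 calls, against 190 with the mean of all probe sets, 224 in a fit of only the groups compared, 708 with array weights, 223 at adjusted p under 0.01, 101 at 2-fold, 0 with the block in only those groups, 1174 with the second DMSO set and 796 with both; leaving out 1 array gave 233 to 295. Nutlin in p53 siRNA cells had 11, against 17 without centring, 19 with quantile normalization, 1 in a fit of only the groups compared, 95 without the doubted libraries, 176 with array weights, 4 at adjusted p under 0.01, 0 with the block in only those groups, 748 with the second set and 236 with both, and 4 to 32 without 1 array. The difference of contrasts had 2002, against 3152 with array weights, 1268 at adjusted p under 0.01 and 1151 at 2-fold. Nutlin in GL2 cells had 3252, and 1567 at 2-fold. With the mean of all probe sets TP73 turned to -0.04 and PRKCI, not called, to 0.07. The cause of these changes was not tested. Dim signals limit the size of folds such as that of GINS2.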
